A study of Mus musculus with 4 samples.

Results

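The C1q macrophages of the neonatal mouse tibia were taken from a single-cell RNA library and were chosen by their measured transcripts of the complement component C1q. A barcode stands for 1 captured cell, and a UMI (unique molecular identifier) for 1 captured transcript. Barcodes with at least 1600 detected genes and at most 10% mitochondrial UMIs were kept, which left 8256 of 14181. A kept barcode was counted as a macrophage when C1qa, C1qb and C1qc together reached 10 per 10000 of its UMIs, when Acp5 and Ctsk did not both reach 10, and when Col1a1 and Col2a1 each stayed under 50. The C1q minimum was passed by 281 barcodes, of which 2 were removed as osteoclasts, 3 for Col1a1 and 11 for Col2a1. The remaining 265 made up 3.21% of the barcodes kept (exact Clopper-Pearson 95% interval 2.84 to 3.61).

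All cells came from the pooled proximal and distal parts of 2 tibiae of 1 male mouse at postnatal day 6 (P6). Its genotype was Col10a1Cre;Rosa26-Tdtomato;Irx3 +/Δ;Irx5 +/-, which carries Cre recombinase under the control of the hypertrophic chondrocyte gene Col10a1, a reporter switched on by Cre, 1 allele of the transcription factor gene Irx3 deleted where Cre acts, and 1 lost allele of its relative Irx5. The 4 sequencing entries were deposited as 1 count matrix of 1 library, so the values have no replicate, no test or standard error is given, and all intervals cover counting error only. The tissue was diced and digested with dispase and collagenase on a shaker for the release of cartilage and bone cells, no wild-type mouse is part of the comparison, and the authors left clusters with the pan-leukocyte gene Ptprc out of their own endochondral cell set.

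C1q is the recognition protein of the classical complement pathway, built from A, B and C chains that are encoded by C1qa, C1qb and C1qc. Unlike most complement proteins, which the liver secretes, C1q is made largely by tissue macrophages. In the marrow, macrophages clear dying cells and expelled erythroblast nuclei, recycle iron from haem, and form the centre of the erythroblastic islands in which red cells mature. Osteoclasts and monocytes belong to the same myeloid branch and also express the growth factor receptor gene Csf1r.

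The 3 C1q genes are neighbours on the minus strand of mouse chromosome 4. In the GENCODE annotation of GRCm38, C1qb lies at chr4:136880129-136886187, C1qc at chr4:136889804-136893065 and C1qa at chr4:136895917-136898803, so that the cluster spans 18675 bases with gaps of 3616 and 2851 bases between the genes. The stretches before the RefSeq starts of C1qb and C1qc (build GRCm38.p6, minus strand, printed 5′ to 3′) are shown because the genes were counted together and their levels followed each other from barcode to barcode. The C1qb stretch is chr4:136886201-136886350 and ends at the base before the start. The C1qc stretch is chr4:136893066-136893140 and ends 1 base beyond the GENCODE gene. Capitals mark GAGGAA, a core sequence bound by the myeloid factor PU.1 (encoded by Spi1), and TGCTGA, a core sequence bound by Maf proteins, each searched on both strands.
C1qb: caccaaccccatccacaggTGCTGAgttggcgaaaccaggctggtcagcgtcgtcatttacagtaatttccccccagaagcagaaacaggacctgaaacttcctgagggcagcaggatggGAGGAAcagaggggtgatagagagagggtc
C1qc: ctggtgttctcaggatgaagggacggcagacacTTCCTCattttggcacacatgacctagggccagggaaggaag
In C1qb the GAGGAA match began 30 bases and the TGCTGA match 131 bases before the start, and in C1qc the GAGGAA match lay on the opposite strand, its first printed base 193 bases before the start. Such short matches are common: GAGGAA was found in 23.3% and TGCTGA in 16.1% of the 250-base stretches before 32851 RefSeq starts. They are a description of the sequence and not evidence of binding. Spi1 was read at 476 CPM (UMIs of a gene summed over a group of barcodes, per 1000000 UMIs of that group) in the macrophages, against 725 in osteoclasts and 242 in monocytes. Maf was read at 105 CPM against 13.7 and 11.9.

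The C1q genes chose the barcodes, so their levels describe the group and support nothing. The C1q sum per 10000 UMIs ran from 10.3 through a median of 66.9 to 206. The count of C1q UMIs per barcode, ranked separately, ran from 7 through a median of 96 to 431. The 3 members closest to the limit had 10.3, 10.4 and 10.5 per 10000 UMIs, and the 3 closest barcodes outside it 9.79, 9.55 and 9.53, so no gap separated them. C1qb was found in all 265 barcodes, C1qc in 258 and C1qa in 257. C1qa contributed 39.0% of the C1q UMIs (95% interval 38.5 to 39.6), C1qb 39.0% (38.4 to 39.6) and C1qc 21.9% (21.5 to 22.4). The shares were 26.0%, 46.4% and 27.6% of the 196 C1q UMIs in osteoclasts and 30.7%, 42.7% and 26.6% of the 2646 in all other barcodes kept. Across the 265 barcodes, Pearson's r of the log levels was 0.75 for C1qa and C1qc, 0.72 for C1qb and C1qc and 0.65 for C1qa and C1qb. These points share 1 library and the sum that chose them.

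**Figure D1:**
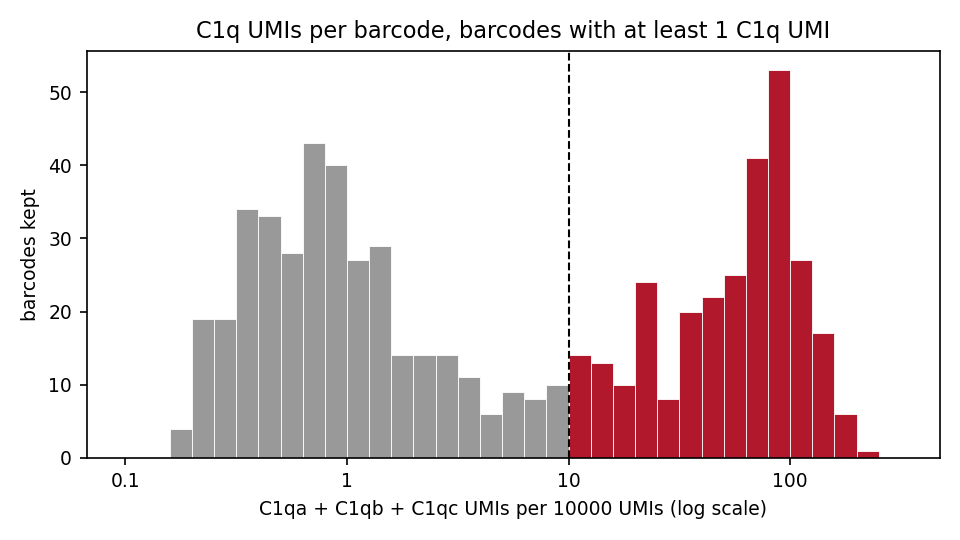
Number of kept barcodes (y axis) by the sum of C1qa, C1qb and C1qc per 10000 UMIs (x axis, log scale). Only the 643 barcodes with a C1q UMI are drawn, grey for the 362 under the limit of 10 (dashed line) and red for the 281 at or over it, and the other 7613 had none. The barcodes form a broad hump below 2 and another that peaks just under 100, with 27 barcodes between 5 and 10 and no empty stretch at the limit.

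C1q transcripts were rarer in B-lineage barcodes and chondrocytes than in osteoclasts. A C1q UMI was found in 2.27% of B-lineage barcodes (Cd79a at least 10 per 10000 UMIs, 485 barcodes, median depth 7733 UMIs), in 2.76% of monocytes (145 barcodes, 9402 UMIs, which were defined by C1q under 10 and so had to be low) and in 5.25% of chondrocytes (Col2a1 at least 50, 2171 barcodes, 22532 UMIs). Osteoclasts (Acp5 and Ctsk both at least 10, 74 barcodes, 27649 UMIs) carried one in 31.1% of barcodes. The C1q minimum itself was reached by 2 of the 74 osteoclasts and 11 of the 2171 chondrocytes. When every barcode was thinned to 5000 UMIs, C1qa was found in 96.6% of macrophages, 5.41% of osteoclasts and 0.272% of B-lineage barcodes, with 4, 0 and 118 shallower barcodes left out. The source of the C1q transcripts outside the group was not tested. The macrophages held 4137304 UMIs, with 4147 in the shallowest barcode, a median of 13976 and 48299 in the deepest, and a median of 3531 genes.

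The name was checked on macrophage genes that the rule did not use. Apoe, an apolipoprotein that carries lipid out of macrophages, was read at 9382 CPM (95% Poisson interval 9289 to 9476) and was found in 263 of the 265 barcodes, with a median of 84.6 per 10000 UMIs and a maximum of 522. Csf1r, the receptor for macrophage colony-stimulating factor, was found in 260 barcodes at 485 CPM (464 to 507). Adgre1, which encodes the mouse macrophage antigen F4/80, was found in 236 at 306 CPM (290 to 324). After thinning to 5000 UMIs, Csf1r was found in 87.0% of macrophages, 68.9% of osteoclasts and 64.8% of monocytes, and Adgre1 in 66.3%, 1.35% and 27.5%, against 0.817% of B-lineage barcodes for each. Other markers had UMIs in fewer barcodes: the mannose receptor gene Mrc1 in 148, the fractalkine receptor gene Cx3cr1 in 149, and the phosphatidylserine receptor kinase gene Mertk in 118. Few transcripts of such genes are captured per barcode, so these counts cannot show whether the group was divided.

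Transcripts of other cells were present. Haemoglobin genes reached 50 per 10000 UMIs in 11 of the 265 barcodes, and the neutrophil granule gene Ngp reached 50 in 6. Cd79a reached 10 in none. Together 16 barcodes passed 1 of these limits and 249 did not. The erythroid list (10 genes) summed to 9828 CPM, of which Hbb-bs made 5448, the neutrophil list (11 genes) to 5668 CPM, led by S100a9 with 2143, and the B-lineage list (11 genes) to 337 CPM, led by Ighm with 108. In all other barcodes kept, the 3 lists summed to 23963, 18288 and 820 CPM. Osteoclasts held 8940, 823 and 133 CPM of the 3 lists, and monocytes 3331, 3286 and 110 CPM. Without the 16 barcodes, Hbb-bs was read at 293 CPM and Ngp at 89.4 CPM. The osteoblast and stroma list (10 genes) summed to 674 CPM and the chondrocyte list (8 genes) to 717 CPM, with Col1a1 at 265 and Col2a1 at 418 CPM. Of the same lists, B-lineage barcodes held 844 and 1111 CPM, osteoclasts 460 and 665, and monocytes 500 and 885. The endothelial list (8 genes) summed to 111 CPM, with Emcn highest at 21.8, against 22.7 in osteoclasts, 51.9 in monocytes and 137 in B-lineage barcodes. T and NK cell, dendritic, basophil and mast, and pericyte and muscle lists each summed to under 20 CPM. Their most abundant genes were Nkg7 (1.93 CPM), Ccr7 (8.94), Kit (4.11) and Acta2 (7.25), and Ncr1, Cd3e, Cd209a, Fcer1a, Cpa3, Mcpt8, Prss34, Ms4a2, Myl1 and Myh11 were at 0. The megakaryocyte list summed to 857 CPM, but 854 of them were Pf4, which macrophages also make, and the defining gene Gp1bb was at 0.

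Scrublet, which scores barcodes against simulated mixtures, marked 13 of the 265 as doublets (4.91%) against 5.59% of all other barcodes kept. WPRE, a sequence at the end of the reporter transcript, was over 14 UMIs, the limit used for reporter-positive cells, in 2 of the 265 barcodes (0.755%, exact interval 0.0915 to 2.70), with 19 and 53 UMIs. It was over that limit in 5.27% of all other barcodes kept. Any WPRE UMI was found in 56 macrophages, and tdTomato itself in 1.

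The macrophages were then set against osteoclasts and against monocytes, the latter taken as barcodes with Ly6c2 of at least 10 and Ccr2 of at least 1 per 10000 UMIs, without C1q, granulocyte, osteoclast or collagen signal over the limits of the rules. Ratios were taken with 1 CPM added, for every gene that reached 10 CPM in 1 or both of the groups, and a gene was counted as higher or lower at 2-fold. Of 8099 genes compared with osteoclasts, 1123 (13.9%) were higher and 561 (6.93%) lower in macrophages. Of 8075 compared with monocytes, 1275 (15.8%) were higher and 698 (8.64%) lower. These counts depended on the settings: with at most 5% mitochondrial UMIs, 1113 genes were lower than in osteoclasts, and with 10 CPM added in place of 1, 732 were higher and 313 lower than in osteoclasts and 705 higher and 436 lower than in monocytes. The median log2 ratio of all genes was 0.03 and 0.12. Of the 22 macrophage core genes, 17 were higher and none lower than in osteoclasts, and 15 were higher and 2 lower than in monocytes. The lists of other cells differed too. Against osteoclasts, 9 of 9 neutrophil, 6 of 7 B-lineage and 5 of 5 endothelial genes were higher and none lower. Of 9 erythroid genes none was higher and 1 lower, and of 8 osteoblast and stroma genes 5 were higher and 2 lower. Against monocytes, 7 of 7 erythroid, 6 of 7 B-lineage and 2 of 5 endothelial genes were higher and none lower. Of 9 neutrophil genes 5 were higher and 1 lower, and of 7 osteoblast and stroma genes 3 and 1. The 15 genes with the largest ratio over the higher of the other groups were C1qa, C1qb, C1qc, H2-Aa, Slc40a1, H2-Eb1, Vcam1, H2-Ab1, Mrc1, Pf4, Cx3cr1, Cd74, C3ar1, Tmem176b and Apoe. Because Acp5, Ctsk, Ly6c2, Ccr2 and the C1q genes drew the groups, their ratios are a description. Elane, Mpo and Ngp, all on the neutrophil list, were limited in monocytes but not in macrophages. The neutrophil counts against monocytes were not retaken without them.

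Of 14 complement genes compared, 11 were higher and 1 lower than in osteoclasts, and 9 were higher and 1 lower than in monocytes. The counts include the C1q genes, which drew the groups, and were not retaken without them. Over all genes, 13.9% were higher and 6.93% lower than in osteoclasts, and 15.8% and 8.64% than in monocytes. C3ar1, the receptor for the C3a fragment, was read at 185 CPM against 11.3 in osteoclasts and 7.76 in monocytes (log2 ratios 3.92 and 4.41). C5ar1, the receptor for C5a, was read at 141 CPM against 4.72 in osteoclasts and 140 in monocytes. Properdin (Cfp), which stabilises the alternative pathway convertase, stood at 484 CPM against 93.5 and 168. C3 itself, the central protein of the cascade, was read at 104 CPM against 2.83 in osteoclasts and 357 in monocytes. The partners that join C1q in the C1 complex were all but missing, with 1.21 CPM of C1ra and 0.242 CPM of C1s1. Vsig4, which encodes a complement receptor of tissue macrophages, Cfd and Serping1 were at 0, which allows up to 3 UMIs of the group's total.

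Of the apoptotic cell uptake list, 14 of 19 genes compared were higher and 1 lower than in osteoclasts (median log2 ratio 2.37), and 11 of 18 were higher and none lower than in monocytes (2.23). Axl, a receptor kinase that binds phosphatidylserine through Gas6, was read at 210 CPM (196 to 225) against 69.4 in osteoclasts and 21.5 in monocytes. Its relative Mertk stood at 62.4 CPM (55.0 to 70.5) against 3.30 and 1.19. The scavenger receptor gene Stab1 was read at 202 CPM against 16.5 and 8.36, and Marco, another scavenger receptor, at 69.1 CPM against under 1 in both. Lysosomal genes followed in part. Of 25 compared, 12 were higher and 2 lower than in osteoclasts, and 13 were higher and none lower than in monocytes. For both lists, the shares over all genes were 13.9% higher and 6.93% lower against osteoclasts, and 15.8% and 8.64% against monocytes. Ctsb, a cathepsin, stood at 2526 CPM against 576 and 585, and legumain (Lgmn), which processes cathepsins, at 1302 CPM against 120 and 96.7.

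The erythroblast island and iron list had 12 of 20 genes higher and 2 lower than osteoclasts (median log2 ratio 1.40). It had 15 of 20 higher and none lower than monocytes (1.62). Among all genes compared, 13.9% were higher and 6.93% lower than in osteoclasts, and 15.8% and 8.64% than in monocytes. Vcam1, the adhesion molecule that holds erythroblasts to the central macrophage, was read at 395 CPM (376 to 415) against 15.1 in osteoclasts. Monocytes had no Vcam1 UMI, so the level was at least 221-fold higher by the limit of 3 counts. Among the 265 barcodes it ran from 0 through a median of 0.711 to 67.0 per 10000 UMIs, with UMIs in 146. Slc40a1, the iron exporter ferroportin, had UMIs in 82 barcodes and was read at 109 CPM (99.2 to 120) against 2.83 and 1.19. Spic, a transcription factor of iron-recycling macrophages, stood at 131 CPM against 26.4 and 2.39, and Hmox1, which opens the haem ring, at 511 CPM against 106 and 190. Fth1, the ferritin heavy chain gene, was read at 10869.9 CPM in macrophages, 13923 in monocytes and 4599 in osteoclasts. Siglec1 and Cd163, often used to find island macrophages, were barely present, at 2.42 CPM in 10 barcodes and 5.32 CPM in 11.

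The classical MHC class II genes were higher than in either group. Of the MHC class II list, 7 of 8 genes were higher and none lower than in osteoclasts. Of 9 compared with monocytes, 5 were higher and 1 lower. The shares over all genes were 13.9% higher and 6.93% lower against osteoclasts, and 15.8% and 8.64% against monocytes. H2-Aa was read at 617 CPM (593 to 641) against 13.2 in osteoclasts and 5.37 in monocytes, and the invariant chain gene Cd74 at 1513 CPM against 97.2 and 99.1. The levels came from part of the group: H2-Aa had UMIs in 117 of 265 barcodes, with a median of 0 and a maximum of 129 per 10000 UMIs. Its level depended on the mitochondrial limit. With at most 5% mitochondrial UMIs, 99 macrophages remained, in which H2-Aa was read at 1178 CPM and Cd74 at 2645 CPM. In the same 99, Mrc1 was 119 CPM in place of 205, Vcam1 251 in place of 395, Timd4 11.4 in place of 34.1, Pf4 540 in place of 854 and Il1b 624 in place of 321. Genes of other cells moved as well, with Hbb-bs at 14903 CPM in place of 5448 and Ngp at 2029 in place of 703, and their part in these values was not tested.

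Genes of bone resorption were mostly lower than in osteoclasts. The osteoclast list had 13 of 17 genes lower, 3 within 2-fold and 1, Trem2, higher (median log2 ratio -3.14). These counts were not retaken without Acp5 and Ctsk, which drew the groups. Over all genes, 13.9% were higher and 6.93% lower than in osteoclasts, and 15.8% and 8.64% than in monocytes. The collagen-degrading protease gene Ctsk, which the rule used, stood at 15.5 CPM against 4881. Mmp9 was read at 76.1 CPM against 2537, the fusion gene Dcstamp at 2.66 against 115, and the proton pump subunit gene Atp6v0d2 at 29.97 against 696. Next to these, Slc9b2, Kbtbd11, Bdh2, Nudt22, Pstpip1 and Cxcl12 were among the 10 genes lowest against osteoclasts. Tnfrsf11a, which encodes the RANK receptor for the osteoclast-inducing ligand, was read at 63.3 CPM against 111 and so missed the 2-fold limit. Against monocytes the same list pointed the other way, with 11 of 13 genes higher and none lower (median 1.77). Tnfrsf11a stood 3.48 higher on the log2 scale and Acp5, tartrate-resistant acid phosphatase, at 490 against 19.1 CPM. Acp5 was at 276 CPM when the 30 barcodes that reached 10 per 10000 UMIs were left out.

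Against monocytes, the monocyte list had 12 of 20 genes lower, 3 higher and 5 within 2-fold (median log2 ratio -2.16). Ly6c2 and Ccr2, which drew the monocytes, stood at 29.2 and 35.1 CPM, and the counts of the list were not retaken without them. Plac8 was read at 158 CPM against 1728. The cytokine gene Il6 gave the lowest ratio, with 2.66 CPM against 663, and Saa3, Csf3, Itgb7, Nrg1, Gpr141, Slpi and Trem1 were also among the 10 lowest. Il1b stood at 321 CPM against 4485 in monocytes and 11.3 in osteoclasts, and its UMIs came from 81 of the 265 barcodes, with a maximum of 168 per 10000 UMIs. As a mean over the macrophage barcodes its level was 506 CPM. Immediate early genes, which respond to cell dissociation among other stimuli, were 10 of 15 higher and none lower than in osteoclasts. The shares over all genes were 13.9% and 6.93% there. Against monocytes, 2 of 16 were higher, near the share of 15.8% over all genes, and 3 were lower, where that share was 8.64%. The part of immediate early genes in the cytokine levels was not tested.

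Of 16 cytokine and growth factor genes compared with osteoclasts, 11 were higher and none lower, and of 17 compared with monocytes 7 were higher and 3 lower. Igf1 was read at 124 CPM against 43.0 in osteoclasts and 1.79 in monocytes, and Il18 at 95.2 against 2.83 and 13.1. Of 15 chemokine genes, 13 were higher and 2 lower than in osteoclasts, and 6 were higher and 2 lower than in monocytes. For the lists in this paragraph, the shares over all genes were 13.9% and 6.93% against osteoclasts and 15.8% and 8.64% against monocytes. The chemokine Pf4 (854 CPM against 39.6 and 4.18) and Cxcl16 (377 against 30.2 and 29.8) were higher than in both. Cxcl2, a neutrophil attractant, was read at 2544 CPM, above the 365 of osteoclasts and below the 7853 of monocytes. Of 11 resident perivascular macrophage genes, 10 were higher and none lower than in osteoclasts, and 9 were higher and 1 lower than in monocytes. Selenop, a selenium carrier, stood at 1008 CPM against 52.9 and 78.2. Lyve1, the hyaluronan receptor that marks many perivascular macrophages, had UMIs in only 2 of the 265 barcodes (5.08 CPM).

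**Figure D2:**
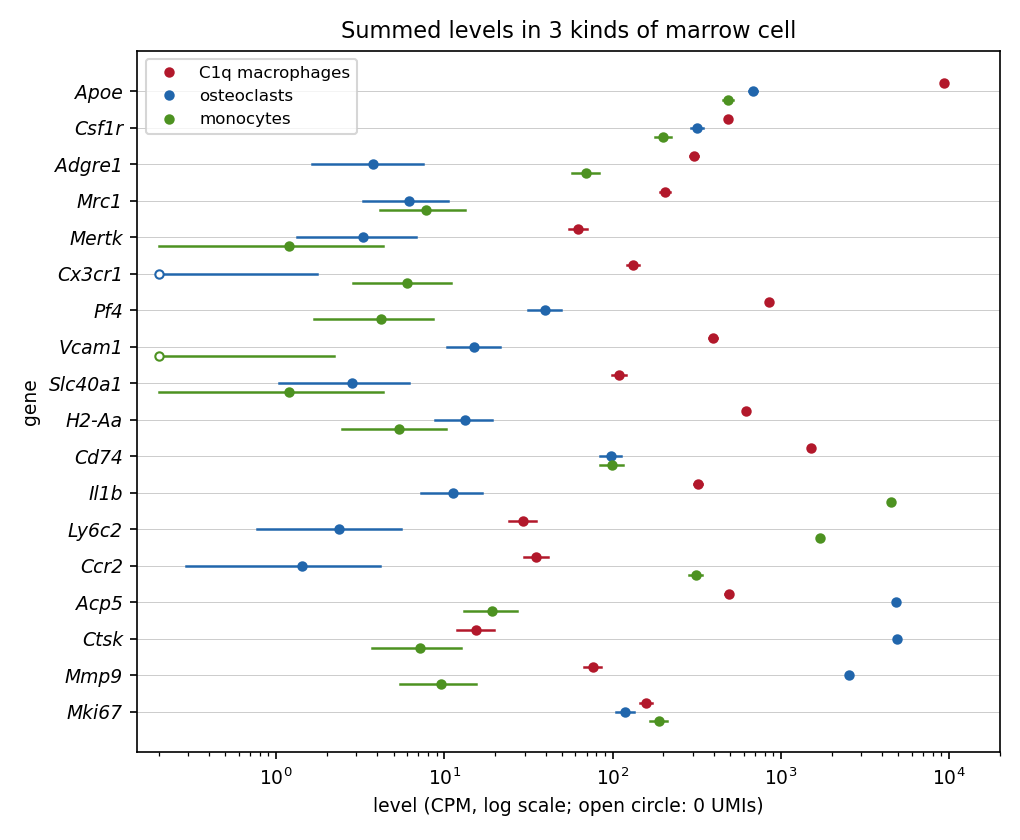
Levels of 18 genes in C1q macrophages (265 barcodes), osteoclasts (74) and monocytes (145), as CPM on a log scale. Points are levels and lines exact 95% Poisson intervals, which cover counting error only, and open circles mark 0 UMIs. The macrophage points lie to the right of both others from Apoe to Cd74, monocytes lie highest for Il1b, Ly6c2 and Ccr2, osteoclasts for Acp5, Ctsk and Mmp9, and the 3 points lie close together for the cycling gene Mki67.

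Of 20 S and G2M phase genes, 2 were higher and 1 lower than in osteoclasts, near the shares of 13.9% and 6.93% over all genes, and none were higher and 3 lower than in monocytes, where those shares were 15.8% and 8.64%, with median log2 ratios of 0.36 and -0.21. Mki67, a gene of dividing cells, was read at 158 CPM (146 to 171) in macrophages, 119 in osteoclasts, 188 in monocytes and 588 in B-lineage barcodes. After thinning, it was found in 32.2% of macrophages and 80.9% of B-lineage barcodes, and Top2a in 31.0% and 80.7%.

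The macrophages were divided into bands of C1q per 10000 UMIs, and 24 barcodes between 5 and 10 that met every other condition of the rule are shown for comparison. The bands within the rule were 10 to 30, 30 to 60, 60 to 100, and 100 or more. All values here are without the barcodes that carried other cell types' genes, which left 22, 52, 54, 93 and 50. C1q chose both the members and the bands, the genes shown were chosen after their values were seen, and all are measured in the same barcodes, so these values are a description and support nothing. Mrc1 stood at 14.7, 16.3, 97.4, 293 and 432 CPM from the lowest to the highest band. Mertk followed the same order with 4.91, 15.2, 38.0, 74.2 and 130 CPM, and Adgre1 with 54.0, 112, 254, 355 and 550. Slc40a1 ran from 2.45 and 8.16 CPM in the lowest bands through 17.8 to 157 and 232 CPM in the highest. In the other direction, S100a4, a calcium-binding protein gene of migrating myeloid cells, stood at 2279, 1713, 1049, 428 and 239 CPM. Acp5 stood at 1415, 681, 507, 449 and 372 CPM, and Ly6c2 went from 93.2 in the lowest to 1.46 CPM in the highest band. MHC class II genes took no such order: H2-Aa was highest in the middle band with 1011 CPM, against 513 and 684 below it and 483 and 550 above it. Spi1 varied little, from 414 to 581 CPM. Median depths of the bands were between 12905.5 and 14909 UMIs.

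**Figure D3:**
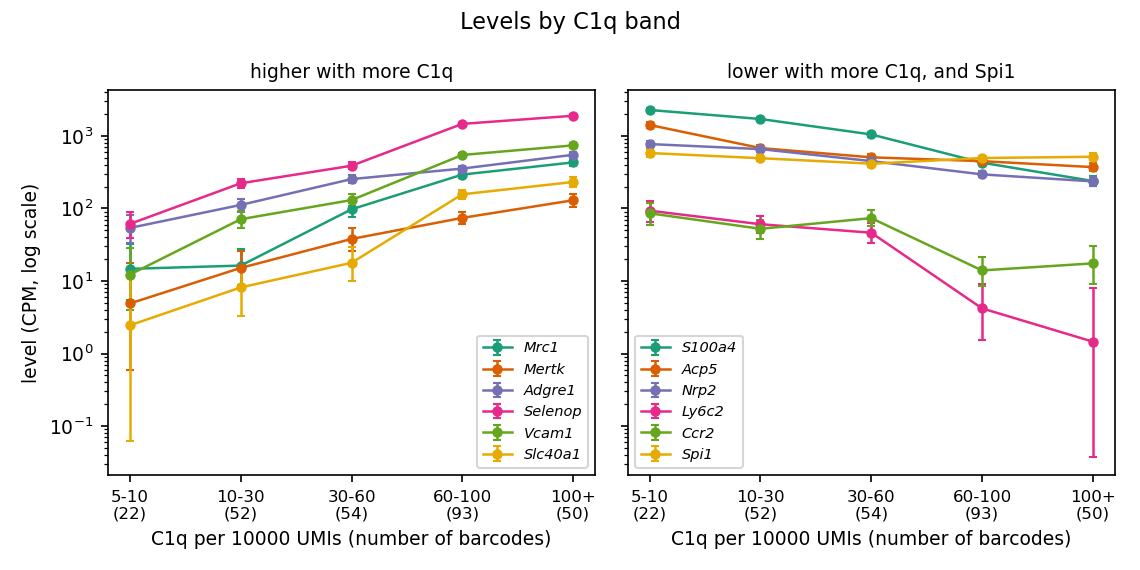
Levels (CPM, log scale) of 6 genes that were higher and 5 that were lower in bands with more C1q, and of Spi1, by band of C1q per 10000 UMIs (x axis, number of barcodes in brackets), with the barcodes rich in other cell types' genes left out. Bars are exact 95% Poisson intervals and cover counting error only. Mrc1 goes from 14.7 to 432 CPM and S100a4 from 2279 to 239 CPM, while Spi1 stays between 414 and 581.

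Clustering of the 265 barcodes without the C1q genes gave 5 groups of 91, 62, 60, 41 and 11. The genes that lead a group were used to form it and are a description, and each group is called by its number. The number of groups rested on the resolution, with 4 groups at a resolution of 0.3 and 9 at 0.8 in place of 5 at 0.5. The C1q sum per 10000 UMIs had medians of 47.3, 48.9, 87.5, 90.2 and 50.3 in groups 1 to 5. Median depths were 9551, 17719, 16835, 13606 and 21663 UMIs. Median mitochondrial shares were 4.79%, 5.35%, 5.98%, 5.96% and 3.96%. A limit of 5% thus lay above the median of groups 1 and 5 and below that of groups 2 to 4. The part of group membership in the levels under that limit was not tested.

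Group 1 held 34.3% of the macrophages and most of the MHC class II transcripts. Its leading genes were Il1b, H2-Eb1, Mmp13, Serpine2, H2-Aa and H2-Ab1. H2-Aa was read at 2040 CPM (1955 to 2128), against 80.6 in group 2, 74.9 in group 3, 272 in group 4 and 231 in group 5, and 6 of 10 MHC class II genes were at least 2-fold higher than in the other members, where 4.42% of all 8195 genes compared were. Il1b stood at 1146 CPM, with 1 UMI in all of group 2. The leading genes were not spread evenly. Il1b had UMIs in 50 of the 91 barcodes, and 10 barcodes held 70.5% of them. The matrix protease gene Mmp13 and Serpine2 had 10 barcodes holding 97.7% and 98.7% of their UMIs. The bone matrix gene Ibsp came mainly from 1 barcode, which held at least 50% of its UMIs, and all 8 higher genes of the osteoblast and stroma list (of 9 compared) and all 6 endothelial genes compared were higher in this group, with list sums of 1488 and 330 CPM. Scrublet marked 7 of the 91 barcodes. When its doublets were left out before clustering, a group of 80 barcodes, 73 of them from group 1, had H2-Aa at 2385 and Il1b at 1448 CPM and was led by Il1b, H2-Eb1, Spp1, H2-Aa and H2-Ab1, and Mmp13, Serpine2 and Ibsp were not among its 12 leading genes. At a resolution of 0.8, 69 barcodes of group 1 formed a group of 33 led by H2-Eb1, H2-Ab1 and H2-Aa (H2-Aa 4805 CPM, Il1b 615) and 36 led by F10, Il1b and Ccl4 (H2-Aa 948 CPM, Il1b 2513). Serpine2, Mmp13, Tnc and Ibsp then led another group of 36 together with B-cell genes, 25 of its barcodes from group 3.

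Group 2 held 23.4% of the macrophages and was led by Sdc1, S100a4, Mmp9, Akr1b8, Ccnd1 and Pmepa1. S100a4 was read at 1828 CPM (1752 to 1907), against 812 in group 1, 212 in group 5 and under 90 in groups 3 and 4. It carried the highest levels of osteoclast list genes among the groups, with 5 of 14 at least 2-fold higher and 1 lower than in the other members, where 2.14% of all 8133 genes were higher. Acp5 stood at 913 CPM (860 to 970) against 267 to 386 in the other groups, Tnfrsf11a at 115 CPM (96.8 to 136) against 35.3 to 50.96, and Atp6v0d2 at 72.9 CPM against 64.3 in group 5 and 4.68 to 15.9 in the others. Osteoclasts held 4839 CPM of Acp5 and 696 of Atp6v0d2. Atp6v0d2 had UMIs in 22 of the 62 barcodes, and 10 held 82.6% of them. Mmp9 also rested on few barcodes, with UMIs in 16 of 62 and 97.2% of them in 10. Ctsk stood at 25.4 CPM. Nrp2, a co-receptor of semaphorins and VEGF, stood at 849 CPM against 178 to 231 in the other groups. Slc40a1 (5.09 CPM) and Timd4 (1.70 CPM) had their lowest levels of the 5 groups here. None of its barcodes passed a limit on other cell types' genes, and Scrublet marked none.

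Group 3 held 22.6% and had Pf4 at 1515 CPM (1442 to 1591), against 454 to 902 in the other groups, and Cx3cr1 at 265 CPM (235 to 298), against 49.2 to 117. Mrc1 stood at 349 CPM and Slc40a1 at 44.0 CPM. Of the erythroblast island and iron list, none of 21 genes was at least 2-fold higher and 1 was lower than in the other members, where 0.777% of all 8108 genes compared were higher and 2.58% lower. By ratio, however, its leading genes were Vpreb1, Igll1, Ttn, Mzb1, Cd79a and Ccl12, most of them genes of early B cells. They came from few barcodes: Vpreb1 had UMIs in 5 of the 60 and Cd79a in 8, and no barcode reached the Cd79a limit. The B-lineage list summed to 866 CPM, against 105 to 211 in the other groups, with 9 of 10 genes higher than in the other members. Genes of granulocyte precursors were also among the leading 20, with UMIs of Elane and Ctsg in 3 barcodes each and of Prtn3 in 8. H2-Aa stood at 74.9 CPM, against 105 CPM in B-lineage barcodes. Ccl12, a monocyte attractant, had UMIs in 16 barcodes, and 10 of them held 90.6%.

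Group 4 held 15.5% and combined the island genes. Vcam1 was read at 1922 CPM (1809 to 2040), against 47.5 to 269 in the other groups, Slc40a1 at 535 CPM (476 to 599) against 5.09 to 125, and Timd4, a phosphatidylserine receptor, at 164 CPM (133 to 201) against 1.70 to 32.8. Axl stood at 729 CPM, Mertk at 233 and Hmox1 at 1507. Of the erythroblast island and iron list, 12 of 22 genes were at least 2-fold higher and 1 lower than in the other members, where 4.75% of all 8134 genes were higher, and of the apoptotic cell uptake list 8 of 19 were higher and none lower. Its first genes by ratio were nevertheless Hba-a1, Hbb-bt, Hba-a2, Hbb-bs, Cd209f and Slc4a1, 5 of them genes of red cells. Haemoglobin reached 50 per 10000 UMIs in 9 of the 41 barcodes, and 3 barcodes held at least 50% of the Hbb-bs UMIs. Without the 9, Vcam1 was read at 2271 CPM, Slc40a1 at 659, Timd4 at 204 and Hbb-bs at 432. The list counts of group 4 were not retaken without these 9 barcodes. Cd5l, a gene of the island list, had UMIs in 4 of the 41 barcodes, and 1 barcode held 37 UMIs.

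Group 5 held 11 barcodes (4.15%) led by Ngp, S100a9, S100a8, Camp, BC100530 and Stfa1, genes of neutrophil granules and cytosol. Ngp passed its limit in 6 of the 11, haemoglobin in 1, and Scrublet marked 3. The neutrophil list summed to 84703 CPM in it, against 165 to 460 CPM in the other groups. C1q was between 23.6 and 82.0 per 10000 UMIs in these barcodes. Whether they are macrophages with neutrophil contents or a pair of cells under 1 barcode was not tested.

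**Figure D4:**
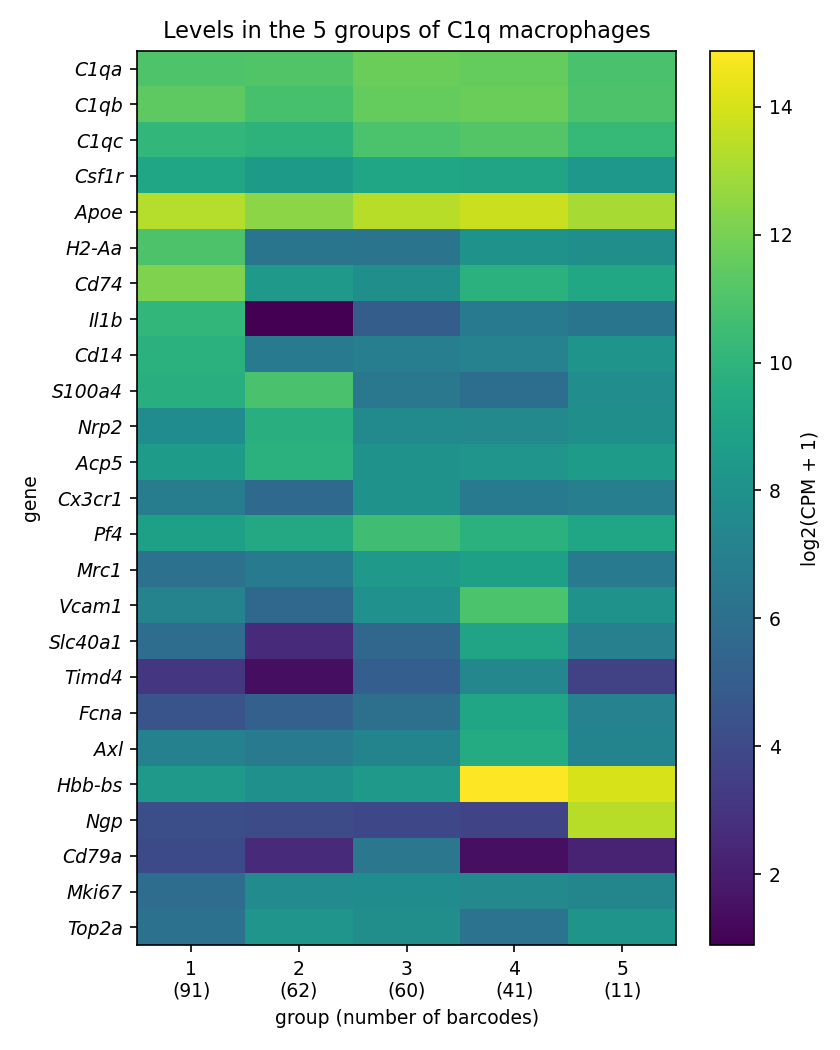
Levels of 25 genes (rows) as log2(CPM + 1) in the 5 groups of C1q macrophages (columns, number of barcodes in brackets), brighter for higher levels. H2-Aa and Il1b are brightest in group 1, S100a4, Nrp2 and Acp5 in group 2, Cx3cr1 and Pf4 in group 3, Vcam1, Slc40a1 and Timd4 in group 4 and Ngp in group 5, while Hbb-bs is bright in groups 4 and 5.

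The groups also differed in cycling genes. In group 1, none of the 20 S and G2M phase genes was at least 2-fold higher and 13 were lower than in the other members, where 254 of all 8195 genes compared (3.099%) were lower, and their sum was 1773 CPM. The sum was 5061 CPM in group 2, 4471 in group 3, 2326 in group 4 and 3552 in group 5. Group 1 had the lowest median depth of the 5, and the part of depth in this was not tested.

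At a resolution of 0.8, 19 barcodes, 11 of them from group 1, formed a group led by Spp1, Cd9, Lag3 and Itgax. Spp1, which encodes the matrix protein and cytokine osteopontin, stood at 12051 CPM in it, against 6026 in the 11 barcodes of group 5, 2295 in the group led by Serpine2 and 22.1 to 547 in the others. When Scrublet doublets were left out before clustering, a group of 7 barcodes, all from group 5, had Spp1 at 619 CPM.

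Since group 4 carried both island genes and haemoglobin, the macrophages were also divided by Vcam1 alone. These are the barcodes in which the genes had been seen together, so the values are a description and no independent support. Vcam1 reached 5 per 10000 UMIs in 52 barcodes and stayed under it in 213, of which 119 had no Vcam1 UMI. Slc40a1 stood at 455 CPM in the first set and 34.7 in the second, Timd4 at 134 and 12.6, Spic at 346 and 85.5, Il18 at 329 and 44.9, and Hmox1 at 1403 and 320. Haemoglobin reached 50 per 10000 UMIs in 4 of the 52 (7.69%, exact interval 2.14 to 18.5) and in 7 of the 213 (3.29%, 1.33 to 6.65), intervals that cover counting error only. The median haemoglobin level was 6.57 and 4.75 per 10000 UMIs. Among barcodes below the haemoglobin limit, Slc40a1 was 458 and 35.4 CPM and Timd4 146 and 12.1 CPM. Of the red cell genes in these barcodes, Alas2 was at 0 and 2.42 CPM and Slc4a1 at 16.9 and 6.97 CPM. The 4 barcodes with the most haemoglobin (3272, 3632, 3772 and 5177 per 10000 UMIs) had Vcam1 of 0, 0.568, 0 and 1.09 per 10000 UMIs, and the next 3 (2360, 2252 and 1336) had 13.8, 14.1 and 50.7. Across the 265 barcodes, Pearson's r of the log levels was 0.71 for Vcam1 and Slc40a1, 0.66 for Vcam1 and Timd4, 0.66 for Vcam1 and Axl, and 0.10 for Vcam1 and Hbb-bs. For S100a4 and Vcam1 it was -0.59, and for H2-Aa and Vcam1 -0.10. At a resolution of 0.8, 35 barcodes led by Cd209f, Vcam1, Slc40a1 and Fcna and 6 led by haemoglobin genes took the place of group 4, with 2282 and 33.1 CPM of Vcam1.

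**Figure D5:**
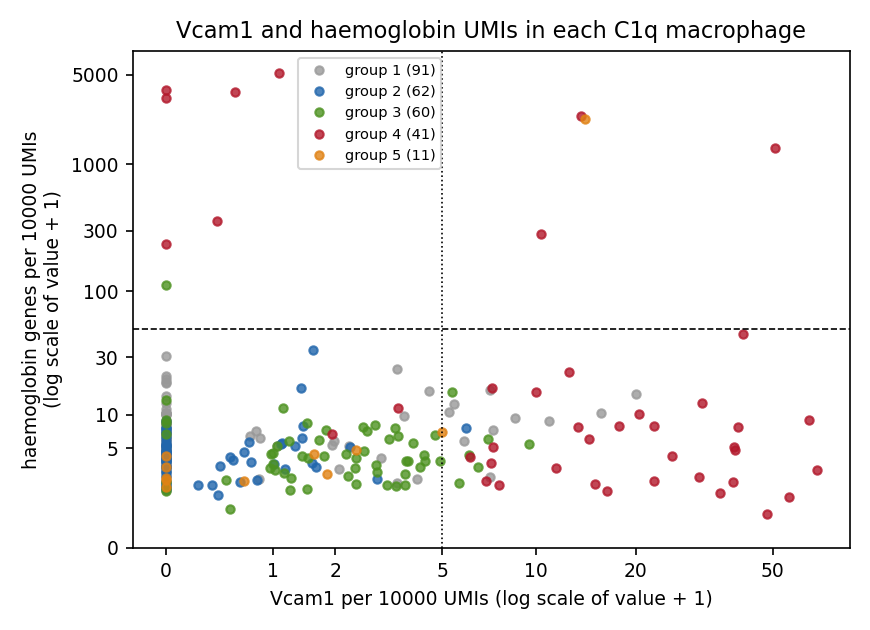
Vcam1 (x axis) and the sum of haemoglobin genes (y axis) per 10000 UMIs in each of the 265 C1q macrophages, both on a log scale of the value + 1, coloured by group. The dotted line marks Vcam1 of 5 and the dashed line haemoglobin of 50. The 4 barcodes over 3000 lie at Vcam1 of 1.09 or less, the next 3 lie at 13.8, 14.1 and 50.7, and 48 of the 52 barcodes at or right of the dotted line lie under the dashed line.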

How the data were processed

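The values are counts of UMIs per gene and barcode, deposited by the authors without normalization and made with Cell Ranger 3.1.0 on mm10 (processing notes and methods, which also name Seurat 3). The annotation release was not given in the sources used here. In all, 31053 genes and 14181 barcodes sum to 158281984 UMIs, with a median of 8235 per barcode and 13957.5 per barcode kept. A count matrix of 98 exogenous sequences was joined by barcode. Cells of the P56 mice were not analysed here. The authors' cell set after their minimum of 1600 genes and other filters was smaller than the 8705 barcodes that this minimum leaves here. All barcodes belong to 1 library, so none are shared between libraries.

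Members and gene lists were chosen with earlier results of these data known. Levels are summed UMIs per 1000000 (CPM) with exact 95% Poisson intervals, and ratios are given on a log2 scale with 1 CPM added. Shares have Clopper-Pearson intervals. For comparison, barcodes were thinned to 5000 UMIs. Groups came from Leiden clustering (1500 variable genes, 20 components, 15 neighbours, resolution 0.5, seed 1). Doublets were kept, with Scrublet at an expected rate of 10%. For 0 counts, a limit of 3 was used. Python 3.11.15, scanpy 1.11.5, numpy 2.4.6, scipy 1.17.1, pandas 2.3.3, scikit-learn 1.9.0, igraph 0.11.9 and matplotlib 3.10.9 were used. The ratios were tested on simulated data, the outcome of which is not given here.

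Named genes are those of the rule, up to 6 of each list with at least 10 CPM, list genes at 0, the 15 genes highest over both other groups, the 10 lowest against each (at least 100 CPM and 100 UMIs) and the 6 leading genes of each group (with 10 CPM added). Other named genes, such as Csf1r, Spi1, Maf, C1ra, Siglec1, Lyve1, Nrp2 and those that lead groups at another resolution, were chosen after their values were seen. Of the 3 C1q genes, RefSeq start sequences were matched for C1qb and C1qc. Where a list gene had no UMI in a compared group, the list's median was also taken with that gene at the limit of 3 counts. This changed the median of chemokines against osteoclasts from 3.60 to 3.39. It also changed the median of the basophil and mast list against all other barcodes kept, from -3.69 to -4.04. A few genes that these rules name are not reported here.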

Additional observations from a re-analysis of the deposited data

How the results depend on the processing

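Limits: 1 mouse, no replicate and counting error only. Leaving out a replicate could not be run, because the 4 entries form 1 count matrix. No paired analysis was possible because there is 1 sample and no test. With at most 5% mitochondrial UMIs, 99 macrophages remained and 1113 genes in place of 561 were lower than in osteoclasts. With 10 CPM added to ratios, 732 genes were higher and 313 lower than in osteoclasts, and 705 higher and 436 lower than in monocytes. With at least 50 CPM in either group, fewer genes were compared, and the counts were 482 and 264 against osteoclasts and 411 and 371 against monocytes. At a resolution of 0.8, 9 groups were found. The levels of 24 genes were recomputed under 9 settings: C1q limits of 5 and 20, at least 1000 and 2000 genes, at most 5% mitochondrial UMIs, without Scrublet doublets, without barcodes rich in other cell types' genes, without barcodes that reached 10 for Acp5 or Ctsk, and as a mean over cells. Of these 216 levels, 119 left their counting interval and 14 moved by over 1.5 times. Of 52 list values without Scrublet doublets or without other cell types' barcodes, alternatives chosen after seeing the data, 1 moved. Leaving out those barcodes before clustering, also chosen after seeing the data, gave 5 groups that were not the same ones: a group with Vcam1 at 1219 CPM held 70 barcodes, 32 of them from group 4, no group took most of its barcodes from group 5, and 17 barcodes were led by Spp1. The direction of single genes' ratios was not recomputed under these settings.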
